A study of Mus musculus with 6 samples.

Results

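The genes described here are 40 targets and regulators of the NRF2 pathway and enzymes of redox metabolism, chosen by name from a table of 28789 genes. The table compares 2 groups of TCMK1 cells, a mouse renal tubular epithelial line, with 3 libraries each: Ang II-treated control cells and Ang II-treated cells with YOD1 overexpression. YOD1 is a deubiquitinase of the OTU family, and the study asked which pathways it regulates under Ang II. Both groups carried the Ang II treatment, so no untreated level was available. How YOD1 was introduced, what the controls received and whether replicates were separate cultures are not stated in the labels. The p-values therefore describe the scatter of these samples, which may be technical. All 40 genes were in the table and 39 reached 1 FPKM in 3 or more of the 6 libraries and were tested; Slc7a11 did not. FPKM counts sequenced fragments relative to transcript length and to the mapped total, so levels of different genes can be compared.

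NRF2, encoded by Nfe2l2, is a transcription factor that the adaptor KEAP1 holds for ubiquitination and breakdown under resting conditions. Oxidants and electrophiles modify KEAP1, NRF2 accumulates, pairs with a small MAF protein and binds antioxidant response elements near genes of glutathione synthesis, thioredoxin reduction, detoxification and NADPH supply. Tubular epithelium has a high oxidative load, and this pathway is studied in the kidney as a defence against oxidant injury. Much of its control acts on the NRF2 protein, which transcript levels do not measure.

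The upstream sequence of Srxn1 is shown first because Srxn1 was the one member that passed the test over all genes. RefSeq promoter windows (GRCm38.p6, 250 bases before to 50 bases after a start) matched 34 of the 40 members by symbol; Gclc, Gsr, Gsta4, Abcc1, Prdx6 and Hmox1 were not matched. The Srxn1 stretch lies on the + strand at chr2:152105274-152105515 and ends 8 bases before the RefSeq start, outside the annotated exons. Capitals mark its match to TGANTCAGC, a 9-letter element bound by NRF2 and small MAF proteins, which contains the AP-1 element TGANTCA. AP-1 factors bind the shorter element, and the stretch held 2 matches to it.
Srxn1: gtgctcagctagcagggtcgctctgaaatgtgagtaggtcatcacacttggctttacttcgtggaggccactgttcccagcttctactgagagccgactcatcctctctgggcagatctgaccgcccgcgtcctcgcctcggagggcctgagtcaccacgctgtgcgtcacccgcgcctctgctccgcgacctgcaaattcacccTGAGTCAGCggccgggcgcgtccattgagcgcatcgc

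TGANTCAGC, read on both strands, occurred in the windows of 4 of the 34 matched members (11.8%) and of 1.31% of the 8313 tested genes with a window. This spelling was chosen after the members' windows were seen; the shorter TGANTCA occurred in the windows of the same number of members, 4 of 34, and of 5.85% of the tested genes with a window. The 4 members were Srxn1, Osgin1, Prdx1 and Gstp1, and their stretches of 29 bases are printed to compare the match and its surroundings, with the match in capitals on the gene's strand.
Srxn1, chr2:152105469-152105497, + strand: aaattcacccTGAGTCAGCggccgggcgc
Osgin1, chr8:119437038-119437066, + strand: aggggcccctGCTGACTCAcgcttatgaa
Prdx1, chr4:116685456-116685484, + strand: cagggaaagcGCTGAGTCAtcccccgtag
Gstp1, chr19:4037968-4037996, - strand: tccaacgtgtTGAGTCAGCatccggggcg
The wider spelling of the antioxidant response element core, TGACNNNGC, occurred in the windows of 11 of the 34 members (32.4%) and of 17.0% of the tested genes with a window. Gclm, a subunit of the rate-limiting enzyme of glutathione synthesis, and Nfe2l2 itself were among the 11.
Gclm, chr3:122245413-122245441, + strand: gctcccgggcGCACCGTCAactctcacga
Nfe2l2, chr2:75704885-75704913, - strand: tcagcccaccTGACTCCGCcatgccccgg
Prdx1 held 1 match that fits both spellings. Of the short stretches shown, those of Gstp1 and Nfe2l2 overlap annotated exons. A match is a description of letters and not of binding, and no match says only that these letters are not in the window.

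Over the whole table the libraries differed in ways that bear on every gene. Yod1 stood at 0.842, 0.757 and 0.684 FPKM in controls 1 to 3 and at 1.73, 7.56 and 1.86 FPKM in YOD1 libraries 1 to 3. All 3 YOD1 libraries lay above all 3 controls, and YOD1 library 2 was far above the other two. Of all FPKM, genes annotated as rRNA took 0.448% to 0.772% in controls and 2.20% to 3.94% in YOD1 libraries. Relative to control 1, the depth of YOD1 libraries estimated from steps between low values was 0.803 to 0.844, a rough estimate that 2.86% to 3.92% of low genes supported; read totals are unknown from FPKM. Of 12 tested tubular epithelial markers 0 passed the test and 9 had a fold change below 0. Their summed level was 757 to 874 FPKM in controls and 825 to 1084 FPKM in YOD1 libraries. Krt18 made up most of that sum, with 482 to 587 FPKM in controls and 595 to 820 FPKM in YOD1 libraries. The tubular markers Pax8 and Cdh16 had lower values in all 3 YOD1 libraries than in any control (37.1 and 26.8 FPKM, and 71.6 and 53.6 FPKM, as means of controls and YOD1 libraries). The keratins Krt8 and Krt18 had higher values in all 3 YOD1 libraries than in any control (26.4 and 34.3 FPKM, and 528 and 681 FPKM). The mature tubule transporters Slc34a1 and Slc12a3 had group means of at most 0.0125 FPKM, and the endocytic receptor Cubn had means of 0.0482 and 0.0830 FPKM. Its partner Lrp2 stood at 3.60 and 2.75 FPKM and the water channel Aqp1 at 19.3 and 21.2 FPKM. Of 4 tested fibroblast and pericyte markers 0 passed the test; Pdgfrb had lower values in all 3 YOD1 libraries (3.08 and 2.06 FPKM), and Col1a1 stood at 7.99 and 6.42 FPKM. The leukocyte marker Ptprc stood at 0.0267 and 0.0556 FPKM as means of controls and YOD1 libraries, and the 5 endothelial markers summed to 0.730 to 2.24 FPKM over the 6 libraries. Other leukocyte markers were not near 0: Cd68 stood at 18.2 and 13.5 FPKM and Csf1r at 4.39 and 4.59 FPKM. The part of these differences in the results for the members was not tested.

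Srxn1 alone among the 39 tested members passed the test, in the lower direction, and 0 members passed in the higher direction. Over all 11483 tested genes, 0.479% passed in either direction, 0.0348% in the lower and 0.444% in the higher (51 genes higher and 4 lower, or 26 and 7 with trends of length and GC content removed). At an unadjusted p under 0.05, 10 members were lower and 2 higher (25.6% and 5.13%, against 13.0% and 7.87% of all tested genes). The 3 YOD1 values lay wholly below the 3 control values in 9 members (23.1%, against 19.1% of all tested genes) and wholly above in 2 (5.13%, against 9.77%). The share of members with separated groups in either direction, 28.2%, was thus close to the 28.9% of all tested genes. The median log2 fold change of the members was -0.13, against -0.10 over all tested genes. Below 0 lay 27 of 39 members (69.2%, against 63.6% of all tested genes). Taken over all transcript lengths, the members were thus near the table's shares in separated groups and in the median. Their share lower at an unadjusted p under 0.05 was above the table's. Separated groups are counted by length below, where short and long members stood differently against genes of their length.

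**Figure D1:**
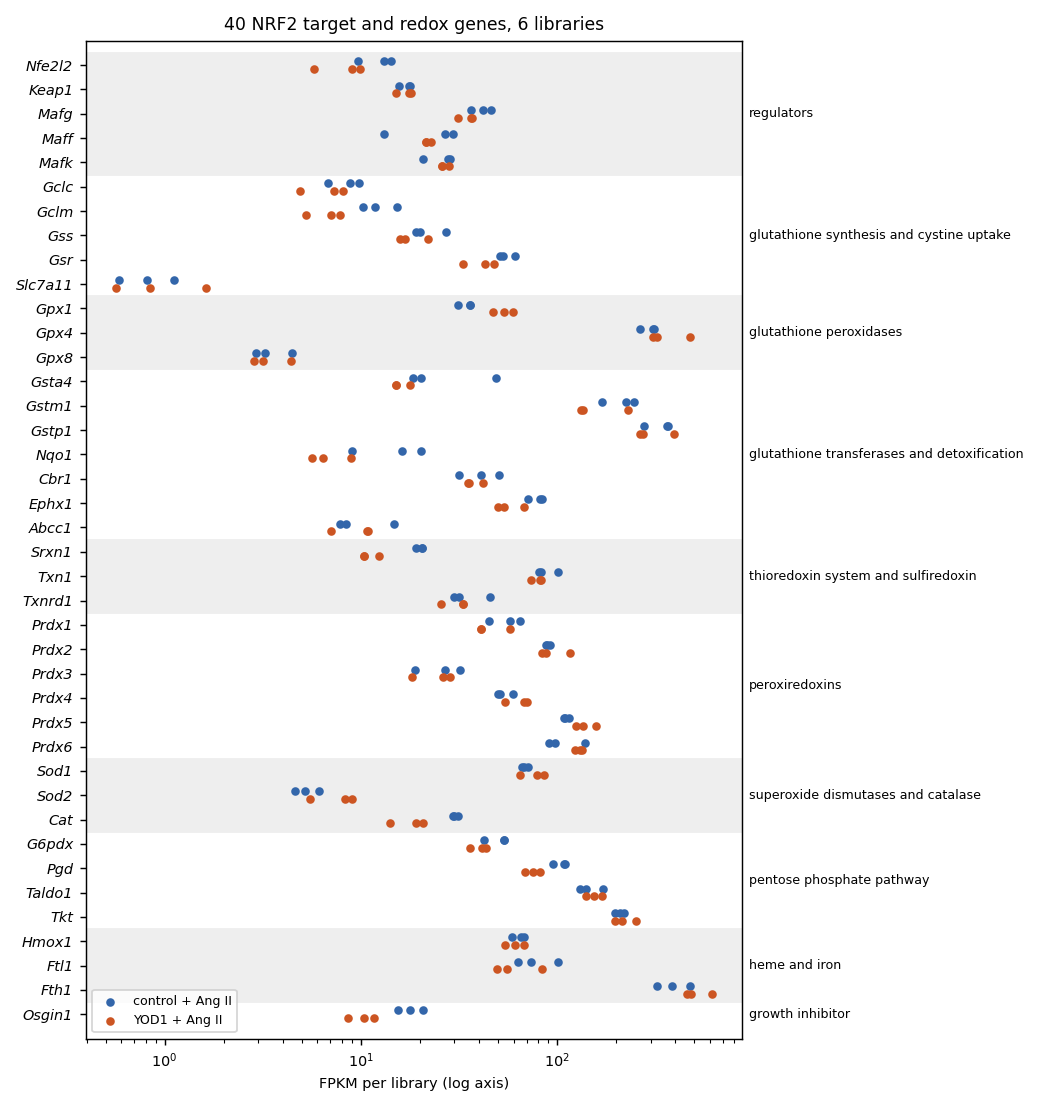
FPKM of each of the 40 members in each library on a log axis, with 3 control libraries in blue and 3 YOD1 libraries in orange, grouped by role. The levels run from 0.564 FPKM for Slc7a11 to 619 FPKM for Fth1, and for most genes the groups overlap.

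**Figure D2:**
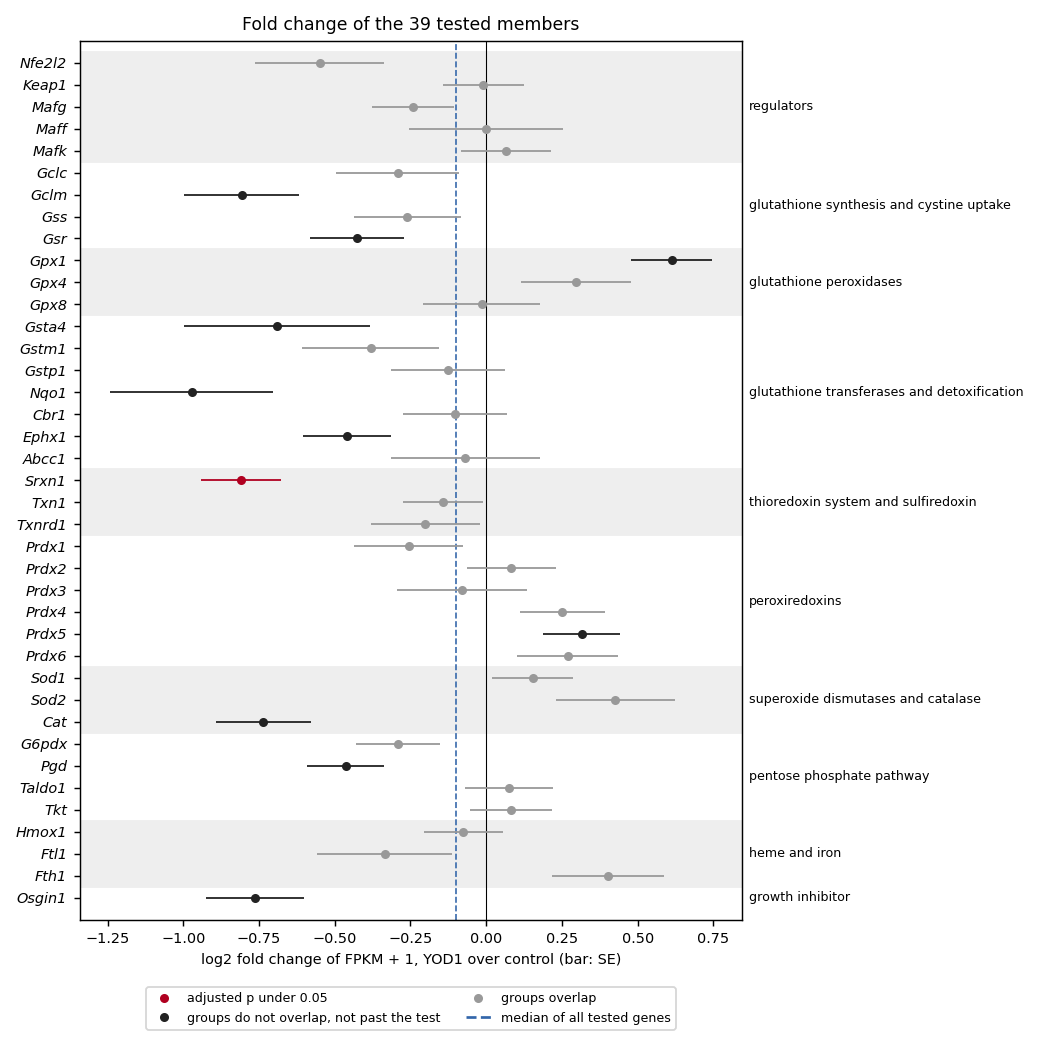
Log2 fold change of FPKM + 1 with its standard error for the 39 tested members, n = 3 libraries per group. Srxn1 is the one gene past the adjusted p of 0.05; the dashed line is the median of all tested genes at -0.10.

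The regulators did not pass the test. Nfe2l2 stood at 14.2, 13.1 and 9.68 FPKM in controls 1 to 3 and at 9.03, 9.85 and 5.74 FPKM in YOD1 libraries 1 to 3. The groups overlapped by a small margin, with YOD1 library 2 just above control 3. The log2 fold change of Nfe2l2 was -0.55 with an SE of 0.21 (unadjusted p = 0.0284, adjusted p = 0.199 in limma). Keap1, which targets NRF2 for breakdown, stood at 15.6, 17.8 and 17.5 FPKM in controls and at 18.1, 17.5 and 15.1 FPKM in YOD1 libraries. Its groups overlapped fully, and its log2 fold change was -0.01 with an SE of 0.13, above 0 under median-ratio scaling (0.10). The ratio of Nfe2l2 to Keap1 transcripts was 0.911, 0.738 and 0.552 in controls and 0.499, 0.562 and 0.381 in YOD1 libraries, again with control 3 and YOD1 library 2 crossing.

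The small MAF genes encode the partners that NRF2 needs to bind DNA. Mafg stood at 46.1, 41.8 and 36.4 FPKM in controls and at 37.0, 36.3 and 31.2 FPKM in YOD1 libraries (log2 fold change -0.24, SE 0.14, adjusted p = 0.317 in limma). Mafk stood at 27.8, 28.6 and 20.7 FPKM in controls and at 25.9, 25.9 and 28.2 FPKM in YOD1 libraries. Maff, which is also induced by stress signals, stood at 29.3, 26.9 and 13.2 FPKM in controls and at 21.5, 21.4 and 22.7 FPKM in YOD1 libraries. Control 3 held the lowest control value of Nfe2l2, Mafg, Maff and Mafk, and the 3 YOD1 libraries of Maff lay between the controls. The log2 fold changes of Maff and Mafk were -0.00 and 0.06, and that of Maff was 0.11 under median-ratio scaling.

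Srxn1 encodes sulfiredoxin, the enzyme that reduces overoxidised 2-Cys peroxiredoxins back to their active form. Srxn1 (ENSMUSG00000032802) stood at 20.6, 20.4 and 19.2 FPKM in controls 1 to 3 and at 12.4, 10.4 and 10.4 FPKM in YOD1 libraries 1 to 3. The groups were far apart and each was tight, with a spread of 0.770 FPKM in controls and 1.19 FPKM in YOD1 libraries (SD, n = 3 each). Srxn1 fell by 0.81 on the log2(FPKM + 1) scale (SE 0.13, limma adjusted p = 0.0355), a ratio of means of 0.551, and ranked 44th of all tested genes by p-value. The call was lost without control 1 (adjusted p = 0.143 in limma), control 2 (0.17), YOD1 library 1 (0.0594) or YOD1 library 2 (0.0955), while the log2 fold change stayed between -0.89 and -0.77 in these fits. It held without control 3 (0.0363) and without YOD1 library 3 (0.0328). It was also lost with no filter on low values (0.208), without the intensity trend (0.0517) and with the replicate number as a block (0.0761).

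The thioredoxin pair that supplies electrons to peroxiredoxins did not follow Srxn1 past the test. Txn1, thioredoxin, ranged from 81.0 to 101 FPKM in controls and from 73.7 to 83.2 FPKM in YOD1 libraries (log2 fold change -0.14, SE 0.13). Txnrd1, the reductase that recycles it and a known NRF2 target, ranged from 29.8 to 45.5 FPKM in controls and from 25.5 to 33.3 FPKM in YOD1 libraries (log2 fold change -0.20, SE 0.18). Both had overlapping groups.

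Sulfiredoxin acts on the 2-Cys peroxiredoxins encoded by Prdx1 to Prdx4, which break down hydrogen peroxide. Srxn1 transcripts per summed FPKM of Prdx1 to Prdx4 were 0.0858, 0.101 and 0.0828 in controls and 0.0507, 0.0507 and 0.0426 in YOD1 libraries. The groups were separated, but the ratio holds the Srxn1 values already given, so it is a description and not a further result. None of the 6 peroxiredoxin genes passed the test, and 4 of 6 had a log2 fold change above 0. Prdx5, whose product works in mitochondria, peroxisomes and cytosol, stood at 110, 115 and 108 FPKM in controls and at 135, 125 and 157 FPKM in YOD1 libraries. All its YOD1 values lay above all controls, with a log2 fold change of 0.31 (SE 0.13, limma adjusted p = 0.213). Prdx1, a cytosolic peroxiredoxin and NRF2 target, ranged from 44.9 to 64.8 FPKM in controls and from 40.8 to 57.7 FPKM in YOD1 libraries. Prdx4, the peroxiredoxin of the endoplasmic reticulum, ranged from 50.0 to 59.5 FPKM and from 54.3 to 70.7 FPKM. Prdx2, Prdx3 and the 1-Cys enzyme Prdx6 had log2 fold changes of 0.08, -0.08 and 0.27 with overlapping groups; those of Prdx2 and Prdx3 changed sign without YOD1 library 3, and Prdx3 also without control 3 and under median-ratio scaling. Prdx5 and Prdx6 together with Prdx2 held most of the family's FPKM: their shares were 25.0%, 24.5% and 20.1% in controls and 27.8%, 25.9% and 19.2% in YOD1 libraries.

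Glutathione, the main soluble thiol of the cell, is made from cystine that the xCT transporter imports and is joined by glutamate-cysteine ligase and glutathione synthetase. All 4 tested genes of this group had a log2 fold change below 0, also under median-ratio scaling, and 0 passed the test. Of all tested genes 63.6% lay below 0. Gclm, the modifier subunit of the ligase, stood at 11.9, 10.3 and 15.3 FPKM in controls and at 7.82, 7.03 and 5.26 FPKM in YOD1 libraries. Its groups did not overlap, and the log2 fold change was -0.81 (SE 0.19, limma adjusted p = 0.0976), a ratio of means of 0.536. The value was -0.51 after trends of transcript length and GC content were removed.

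Gclc, the catalytic subunit of the same enzyme, stood at 8.81, 6.82 and 9.79 FPKM in controls and at 8.16, 7.31 and 4.91 FPKM in YOD1 libraries, with overlapping groups (log2 fold change -0.29, SE 0.20). The ratio of Gclm to Gclc was 1.35, 1.51 and 1.57 in controls and 0.959, 0.962 and 1.07 in YOD1 libraries. The ratio separated the groups, as Gclm alone did and Gclc alone did not, with SDs of 0.113 and 0.0632 (n = 3 each). It holds the Gclm values already given, so it is a description. Gsr, which reduces oxidised glutathione with NADPH, stood at 53.2, 51.4 and 61.0 FPKM in controls and at 47.6, 42.8 and 33.0 FPKM in YOD1 libraries. All YOD1 values lay below all controls (log2 fold change -0.43, SE 0.15, adjusted p = 0.179 in limma). Gss, glutathione synthetase, ranged from 19.0 to 27.2 FPKM and from 15.8 to 21.9 FPKM. Slc7a11, which encodes xCT and was not tested, stood at 0.812, 0.587 and 1.11 FPKM in controls and at 0.842, 1.63 and 0.564 FPKM in YOD1 libraries, where the highest and the lowest of the 6 values were both in YOD1 libraries.

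The glutathione peroxidases use glutathione to reduce peroxides. Gpx1, the cytosolic and mitochondrial selenoenzyme, stood at 31.3, 36.2 and 36.2 FPKM in controls and at 47.1, 53.8 and 59.5 FPKM in YOD1 libraries. Every YOD1 value was above every control, with a log2 fold change of 0.61 (SE 0.13, limma adjusted p = 0.0811), a ratio of means of 1.55. Gpx4, which reduces lipid peroxides in membranes and guards against ferroptosis, ranged from 264 to 312 FPKM in controls and from 307 to 474 FPKM in YOD1 libraries. The highest value of Gpx4 was in YOD1 library 3, and the log2 fold change was 0.30 with all libraries and 0.10 without that library. Gpx4 made up 88.5% of the FPKM of the 3 peroxidase genes in controls and 86.6% in YOD1 libraries. Gpx8, an endoplasmic reticulum member, stayed between 2.86 and 4.44 FPKM in all libraries.

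Cat encodes catalase, the peroxisomal enzyme that splits hydrogen peroxide without a thiol. Cat stood at 29.7, 29.6 and 31.3 FPKM in controls and at 19.0, 20.8 and 14.02 FPKM in YOD1 libraries. The 3 controls were nearly equal and all YOD1 values lay below them, with a log2 fold change of -0.74 (SE 0.16, limma adjusted p = 0.0783), a ratio of means of 0.595. The ratio of Gpx1 to Cat transcripts was 1.05, 1.22 and 1.16 in controls and 2.48, 2.59 and 4.24 in YOD1 libraries. This ratio was chosen after the values of both genes were seen, so it is a description. Sod2, the mitochondrial superoxide dismutase, stood between 4.61 and 6.13 FPKM in controls and at 8.98, 8.31 and 5.50 FPKM in YOD1 libraries, so YOD1 library 3 lay within the controls (log2 fold change 0.43, SE 0.20, adjusted p = 0.25 in limma). Sod2 had a log2 fold change of 0.73 (adjusted p = 0.0513 in limma) after length and GC trends were removed. Sod1, the cytosolic dismutase, ranged from 66.1 to 71.0 FPKM and from 65.0 to 85.4 FPKM.

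**Figure D3:**
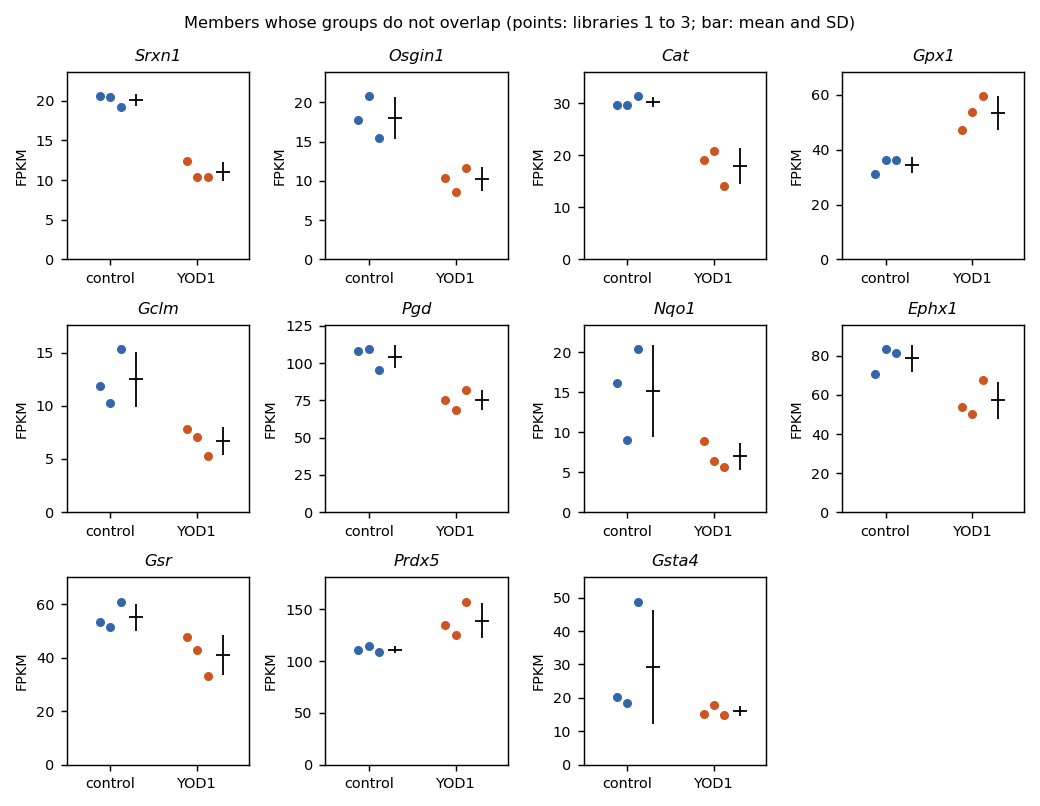
FPKM of the 11 members whose groups do not overlap, in order of p-value, with a point per library (1 to 3 from left to right), the mean and the SD (n = 3). Gpx1 and Prdx5 lie higher in YOD1 libraries and the other 9 lower. Control 3 stands above the other controls for Gsta4, Gclm, Nqo1, Gsr and, by a small margin, Cat.

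The 7 genes of conjugation and detoxification all had log2 fold changes below 0, against 63.6% of all tested genes. Under median-ratio scaling 5 of 7 did, while Cbr1 and Abcc1 were above 0, as they were without control 3. None of the 7 passed the test. Glutathione transferases outside the members went both ways, such as Gsto1 (0.18) and Gstm2 (0.10) above 0 and Gstp2 (-0.27) and Gstt3 (-0.28) below 0. Nqo1, a quinone reductase used widely as an NRF2 reporter gene, stood at 16.1, 9.02 and 20.4 FPKM in controls and at 8.89, 6.39 and 5.64 FPKM in YOD1 libraries. The groups were separated only narrowly, since control 2 and YOD1 library 1 were almost equal, and the log2 fold change was -0.97 (SE 0.27, limma adjusted p = 0.122). It ranged from -1.28 without control 2 to -0.74 without control 3. Ephx1, the microsomal epoxide hydrolase, stood at 70.9, 83.5 and 81.7 FPKM in controls and at 53.9, 50.1 and 67.9 FPKM in YOD1 libraries. Its groups did not overlap (log2 fold change -0.46, SE 0.15, adjusted p = 0.146 in limma).

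Gsta4, a glutathione transferase for the lipid peroxidation product 4-hydroxynonenal, stood at 20.2, 18.4 and 48.8 FPKM in controls and at 15.2, 17.8 and 15.0 FPKM in YOD1 libraries. Control 3 alone was high, and the log2 fold change of -0.69 (SE 0.31, adjusted p = 0.238 in limma) was -0.26 without that library. Gstm1 ranged from 169 to 245 FPKM in controls and from 133 to 230 FPKM in YOD1 libraries, and Gstp1 from 277 to 367 FPKM and from 266 to 392 FPKM. Both are glutathione transferases with close relatives in the genome, as are ferritin genes and Gpx4 with pseudogenes, so their single values are uncertain where reads were split between copies. Cbr1, a carbonyl reductase, and Abcc1, an exporter of glutathione conjugates, had log2 fold changes of -0.10 and -0.07.

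Members of the glutathione and detoxification groups varied together within the controls. Control 3 was the highest control in 10 of their 11 tested genes, with Ephx1 as the exception, against 35.1% of all tested genes. Over all 39 members control 3 was the highest control in 20 (51.3%). Within the YOD1 group, library 2, which had the most Yod1, was the lowest in 18 of 39 members (46.2%, against 24.1% of all tested genes), and library 3 was the lowest in 17 (43.6%, against 54.8%). These counts describe single libraries, and genes that vary together are not independent.

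The pentose phosphate pathway makes the NADPH that glutathione reductase, thioredoxin reductase and NQO1 spend. Its oxidative enzymes, G6pdx and Pgd, had log2 fold changes below 0, and its non-oxidative enzymes, Taldo1 and Tkt, lay near 0 (0.08 and 0.08). Pgd, 6-phosphogluconate dehydrogenase, stood at 108, 109 and 95.2 FPKM in controls and at 75.6, 68.5 and 82.0 FPKM in YOD1 libraries. Its groups were separated, with a log2 fold change of -0.46 (SE 0.13, limma adjusted p = 0.118). G6pdx, glucose-6-phosphate dehydrogenase and the entry enzyme, ranged from 42.3 to 53.4 FPKM in controls and from 36.2 to 43.5 FPKM in YOD1 libraries (log2 fold change -0.29, SE 0.14). Taldo1 changed sign without control 2 and Tkt without YOD1 library 3.

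Heme oxygenase frees iron from heme and ferritin stores it. Hmox1, a strongly inducible NRF2 target, ranged from 59.2 to 67.6 FPKM in controls and from 54.2 to 68.1 FPKM in YOD1 libraries. The groups of Hmox1 overlapped almost fully, with a log2 fold change of -0.08 and an SE of 0.13, and 0.03 under median-ratio scaling. Fth1, the ferritin heavy chain, was the most abundant member at 394 ± 76.0 and 520 ± 86.4 FPKM (SD, n = 3 each), with a log2 fold change of 0.40 (SE 0.18, adjusted p = 0.247 in limma). Ftl1, the light chain, stood at 79.3 ± 19.2 and 63.1 ± 18.6 FPKM (SD, n = 3 each), with a log2 fold change of -0.34 (SE 0.22). The ratio of Fth1 to Ftl1 was 4.38, 3.83 and 7.45 in controls and 9.68, 11.1 and 5.46 in YOD1 libraries, so YOD1 library 3 lay among the controls.

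Osgin1, an oxidative stress-induced growth inhibitor gene, stood at 17.8, 20.7 and 15.5 FPKM in controls and at 10.4, 8.59 and 11.6 FPKM in YOD1 libraries. All YOD1 values lay below all controls, with a log2 fold change of -0.76 (SE 0.16, limma adjusted p = 0.0783), a ratio of means of 0.567. Without YOD1 library 3 it passed the test (log2 fold change -0.85, adjusted p = 0.0427 in limma). Srxn1, Osgin1 and Cat had the lowest p-values of the members. Srxn1 and Osgin1 have a match to TGANTCAGC in the stretches shown above, on opposite strands, and Cat has none in its window. TGANTCAGC was chosen after the members' windows were seen. The other genes with that element, Prdx1 and Gstp1, had log2 fold changes of -0.26 and -0.13 and overlapping groups. Of the 11 members with TGACNNNGC, 9 had a log2 fold change below 0 and 3 had separated groups, all lower (Srxn1, Gclm and Pgd). The TGACNNNGC matches of Srxn1 and Pgd begin at bases 29 and 4 after the start. Their stretches of 29 bases overlap annotated exons. Of the 22 tested members with a window and no TGACNNNGC match, 13 lay below 0, with 4 separated lower and 2 higher. These 22 include Osgin1, separated lower, and Gstp1, which both hold TGANTCAGC. Over all tested genes 63.6% lay below 0, and 19.1% were separated lower and 9.77% higher, and these small counts are a description only; members with and without a match were not compared by a test.

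Transcript length moved with fold change over the whole table. Among tested genes up to the median length of 3018.5 bp, 49.0% had a log2 fold change below 0, and among longer genes 78.6%. The members were mostly short: 27 lay below that length, of which 19 (70.4%) were below 0. Their median was -0.13, against 0.01 for all short genes. Of the 12 longer members 8 (66.7%) lay below 0. Groups were separated lower in 7 and higher in 2 of the 27 short members, against 581 and 878 of all 5693 short genes. They were separated lower in 2 and higher in 0 of the 12 longer members, against 1596 and 231 of all 5693 longer genes. These counts were not compared by a test. Srxn1 (2812 bp), Cat (2613 bp), Osgin1 (2302 bp) and Nqo1 (1553 bp) are among the short ones, and Gclm (5589 bp) among the long. With the length and GC trends removed Srxn1 had a log2 fold change of -0.76 (adjusted p = 0.0393 in limma), Osgin1 -0.81 (0.0513) and Cat -0.69 (0.0531).

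**Figure D4:**
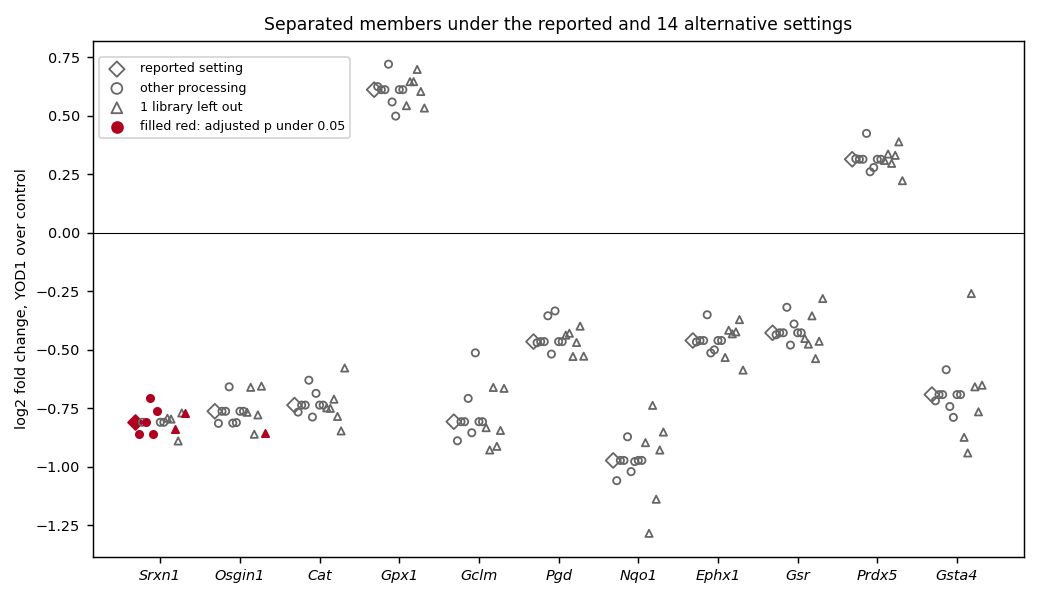
Log2 fold change of the 11 separated members under the reported setting (diamond), 8 other processing settings (circles) and 6 fits that leave out 1 library (triangles); filled red symbols have an adjusted p under 0.05. Srxn1 is filled in the reported and in 7 of 14 alternative settings and Osgin1 in 1; no symbol crosses 0.

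The authors' deposited table gives 6 of the 40 members a q-value under 0.05, against 1.97% of all 28789 genes and 4.16% of the 11483 tested here. The 5 lower ones in the authors' deposited table were Srxn1 (q = 0.00223), Gclm (0.00564), Cat (0.0146), Nqo1 (0.0157) and Osgin1 (0.0477), and the higher one was Gpx1 (0.0189). Of these the authors' deposited table marks only Nqo1 as significant, where 0.993% of all genes are marked. Nqo1 has the largest authors' log2 ratio of the 6 in size (-1.12). Those of the other 5 are -0.90 (Gclm), -0.86 (Srxn1), -0.82 (Osgin1), -0.75 (Cat) and 0.63 (Gpx1). Whether the mark depends on the size of the ratio was not tested. All 6 are among the 7 members of lowest p in limma, with Pgd as the remaining one. Neither the labels nor the header name the test behind the authors' deposited table.

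Other genes of NRF2 and redox biology, 96 table entries for a list of further targets, relatives and adaptors, gave no call. Of 74 tested entries 0 passed in either direction by limma, and the median log2 fold change was -0.11. At an unadjusted p under 0.05, 4 were higher and 7 lower (5.41% and 9.46%, against 7.87% and 13.0% of all tested genes). Groups were separated in 12 lower and 6 higher (16.2% and 8.11%, against 19.1% and 9.77% of all tested genes). Pgls, the pentose phosphate lactonase between the steps of G6pdx and Pgd, stood at 8.002, 9.98 and 11.1 FPKM in controls and at 15.0, 18.1 and 20.2 FPKM in YOD1 libraries. Its YOD1 values were all higher, opposite to those of Pgd, with a log2 fold change of 0.82 (adjusted p = 0.0702 in limma), and it passed with median-ratio scaling (0.0429) and without control 3 (0.0472). Slc3a2, the heavy chain that partners xCT and other amino acid transporters, stood at 182, 172 and 194 FPKM in controls and at 250, 317 and 242 FPKM in YOD1 libraries. Gpx3, the secreted peroxidase of kidney tubules, stood at 1.48, 3.39 and 2.80 FPKM and at 3.86, 8.70 and 8.86 FPKM. Mgst1, a microsomal transferase, stood at 0.233, 0.697 and 0.598 FPKM in controls and at 1.02, 1.83 and 1.06 FPKM in YOD1 libraries. It reached 1 FPKM only in YOD1 libraries and was tested only through them, so its log2 fold change of 0.60 is a description. Mgst1 is among the 4 and the 6 entries counted as higher above. Akr1b3, aldose reductase, and Txnl1, a relative of thioredoxin, gave 0.30 and 0.41 as log2 fold change.

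Among the genes lower in YOD1 libraries, Nnt, which makes mitochondrial NADPH, stood at 18.3, 9.51 and 6.89 FPKM in controls and at 2.28, 5.26 and 3.99 FPKM in YOD1 libraries (adjusted p = 0.108 in limma). A second table entry with the symbol Nnt stood at 1.66, 6.50 and 7.23 FPKM in controls and at 6.75, 5.68 and 5.68 FPKM in YOD1 libraries, so reads may be split between the entries and the value of either is uncertain. Idh1, a cytosolic NADPH source, stood at 15.0, 10.7 and 8.98 FPKM and at 6.76, 7.42 and 4.996 FPKM (adjusted p = 0.12 in limma). Cul3, the cullin that joins KEAP1 to the ubiquitin machinery, stood at 8.55, 8.29 and 9.01 FPKM and at 6.23, 6.14 and 2.94 FPKM. Bach1, a repressor that competes with NRF2 for the same elements, stood at 3.00, 3.14 and 2.55 FPKM and at 1.67, 2.26 and 0.741 FPKM. For both, YOD1 library 3 was the lowest, and adjusted p was 0.152 and 0.167 in limma. Nfe2l1, the related factor NRF1, and Akr1b8, an aldo-keto reductase, had log2 fold changes of -0.47 and -0.41 with separated groups.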

How the data were processed

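Poly(A) RNA of 6 TCMK1 samples, 3 control and 3 YOD1, was sequenced in paired ends, per the labels' protocols, whose text also speaks of an adipose type. For each gene the authors deposited FPKM in every library, a fold ratio of group means with its log2 value, and p-values and q-values, per the file headers. Named tools are HISAT2 2.0, StringTie 1.3.0 and Bowtie 0.12.2, with build mm8 and no role or order, in the submitters' processing notes. Read totals are unknown from FPKM, so precision rests on 3 libraries per group; library strand is not stated, so overlapping genes cannot be told apart.

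Values became log2(FPKM + 1), which understates the change of low genes. The 11483 genes reaching 1 FPKM in 3 or more libraries were fitted in limma 3.58.1 (R 4.3.3) by a linear model with variances moderated along an intensity trend. Tests were two-sided, and Benjamini-Hochberg adjustment covered all tested genes at a threshold of 0.05. The script was tested on simulated data. Permuting 3 against 3 libraries exactly reaches no p under 0.1 and was not used. Alternatives were a pseudocount of 0.1, no filter, a filter at 5 FPKM, median-ratio scaling, equal totals without rRNA genes, removal of length and GC trends (splines of 4 degrees of freedom, longest GENCODE M21 transcript), no intensity trend, a block on replicate number, and leaving out each library. The members and lists were chosen with earlier results of these data known. Values per library are given for regulators, called members and members with separated groups, and 6 other pathway genes of lowest p are named per direction. Promoter windows came from RefSeq. Software also included Python 3.11.15 with pandas 2.3.3, numpy 2.4.6 and matplotlib 3.10.9. Unused per-sample columns numbered 0.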

Additional observations from a re-analysis of the deposited data

How the results depend on the processing

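With 3 libraries per group, calls changed when 1 library was left out, in fits that also had fewer libraries. Srxn1 was called in 7 of 14 alternatives: 0 members were called lower with no filter (adjusted p of Srxn1 0.208 in limma), without an intensity trend (0.0517) and with the replicate number as a block (0.0761), and 0 to 2 with 1 library removed, with a range of adjusted p over all alternatives from 0.0315 to 0.208. No member was called higher in any alternative. 1 other pathway gene, Pgls, was called higher with median-ratio scaling, and 0 to 1 when 1 library was left out. The median of the members was -0.015 with median-ratio scaling (-0.01 over all tested genes) and ranged from -0.22 (without control 2) to -0.11 with 1 library removed.

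Over all tested genes the test called 0 higher and 0 lower with no filter, 160 and 9 with median-ratio scaling, 26 and 7 with length and GC trends removed, 33 and 8 with the replicate block, and 29 higher without rRNA genes. Leaving out 1 library gave 17 to 145 higher and 1 to 97 lower; without control 3 there were 145 and 97, without YOD1 library 3 107 and 25, without control 1 30 and 1, and without control 2 17 and 2. Same-numbered libraries had correlations of deviations of 0.30, -0.12 and -0.11, within the range of -0.41 to 0.34 of the other control and YOD1 pairs. Deviations from a group mean are tied to each other, so these values cannot settle whether replicate numbers pair the samples.

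Signs turned only for members near 0. With median-ratio scaling Keap1 had 0.10, Maff 0.11, Gpx8 0.070, Cbr1 0.0064, Abcc1 0.031, Prdx3 0.027 and Hmox1 0.035; with trends removed Keap1 had 0.070 and Abcc1 0.15; with a pseudocount of 0.1 Maff had 0.0025. Leaving out 1 library gave Keap1 -0.066 to 0.066, Maff -0.35 to 0.20, Mafk -0.080 to 0.15, Gpx8 -0.16 to 0.12, Cbr1 -0.27 to 0.058, Abcc1 -0.22 to 0.19, Prdx2 -0.062 to 0.18, Prdx3 -0.28 to 0.10, Taldo1 -0.0068 to 0.19, Tkt -0.017 to 0.16 and Hmox1 -0.16 to 0.0068. The cause of these changes was not tested.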
